A study of Homo sapiens with 5 samples.

Results

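The genes described here are those of the MYC network and of the growth machinery that MYC is known to drive: MYC and its partners, proteins of the nucleolus, subunits of RNA polymerases I and III, and enzymes of purine, pyrimidine and polyamine synthesis. A total of 57 genes were listed by name for their known roles, with earlier results of these data known. A gene counted as measured where a probe set carried its symbol and no other. By that rule 39 of the 57 were measured, of 7713 genes in all. Another 5 (MXD4, MYCBP, NOP56, DKC1 and PPAN) lie only on probe sets that carry several symbols and were not analysed here, and the other 13 (MAX, FBL, NOP58, NOP16, BOP1, WDR12, RRS1, GNL3, NIP7, RRP12, TSR1, WDR43 and DHODH) were not matched to a probe set. Each of the 39 had 1 probe set.

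Gene expression was profiled on 5 Affymetrix arrays of KM-H2 (KMH2 in the labels), an established line of Hodgkin lymphoma cells of B-cell origin. Cells were kept for 16 hours in RPMI1640 with 10% FCS and antibiotics, either with 30 uM LY294002 (2 arrays) or with the solvent DMSO (3 arrays). LY294002 is a synthetic inhibitor of phosphoinositide 3-kinase (PI3K) that also binds mTOR and the bromodomains of BET proteins. A triplicate of the LY294002 group had been planned, and 1 array with high background was left out by the submitters. All arrays are of 1 cell line, and the labels do not say whether a replicate is a culture of its own. The p-values below therefore refer to array-to-array spread, part or all of which can be technical.

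MYC is a transcription factor that binds DNA as a dimer with MAX, at a short sequence called the E-box. MXI1, MXD4 and MNT also pair with MAX and repress. Ribosomes are assembled in the nucleolus, where RNA polymerase I transcribes the ribosomal RNA precursor and a large set of assembly factors, snoRNA-guided enzymes among them, process it. Growing cells also need purines and pyrimidines for RNA and DNA, and polyamines, small positively charged molecules that bind RNA. PI3K and mTOR signalling is known to support each of these processes, and in lymphoid cells BET proteins are known to sustain MYC transcription.

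The E-box motif CACGTG reads the same on both strands. It was searched in RefSeq promoter windows (build GRCh38.p14) that run from 250 bases before to 50 bases after a gene's start. Of the 39 measured members 35 had at least 1 window; MYC, NOLC1, ADSL and IMPDH2 had none. The motif was present for 15 of the 35 (42.9%), against 8.77% of all 27305 genes with a window. By window, it was in 20 of the 68 windows of all listed members (29.4%), against 7.26% of 35116 windows of all genes. Because the genes were listed as growth machinery that MYC is known to drive, a higher share can follow from that choice. The sites below are shown because genes that carry them lay both among the lowest members on the arrays (CDK4, MTHFD1) and among the highest (ODC1, MNT). Capitals mark the E-box, each site has 10 bases on either side, and all run 5′ to 3′ on the gene's strand.
CDK4, chr12:57752511-57752536: gtcaagcggtCACGTGtgatagcaac
CDK4, chr12:57752491-57752516: agcaacagatCACGTGgctgccatcg
CDK4, chr12:57752396-57752421: gggtggcggtCACGTGcccagaacgt
MTHFD1, chr14:64388328-64388353: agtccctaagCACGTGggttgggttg
SRM, chr1:11060202-11060227: ggccgggcccCACGTGgcccctggag
DDX21, chr10:68956606-68956631: ccgggtgtccCACGTGgtccccggcg
PPAT, chr4:56435782-56435807: cggagatttcCACGTGcagcaaatac
MNT, chr17:2401238-2401263: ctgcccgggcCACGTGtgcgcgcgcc
ODC1, chr2:10448026-10448051: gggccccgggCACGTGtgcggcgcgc
ODC1, chr2:10447992-10448017: cctgcggagaCACGTGgtcgccgagc
CDK4 has 3 sites upstream of its start and ODC1 has 2 around its start. A match of these letters is a description of the window and not evidence of binding.

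The members lay lower with LY294002 on balance, by small amounts, and none passed the test. Taken array by array, their median was below the DMSO range on LY294002 replicate 2 and within it on replicate 1. The level of a gene is the log2 value of its probe set, the difference is the LY294002 mean minus the DMSO mean on that scale with its standard error (SE), and a gene passed where limma's p-value, adjusted by Benjamini-Hochberg over all probe sets, was under 0.05. By that rule 0 of 39 members fell and 0 rose, against 0.298% of all genes that fell and 0.609% that rose. The median difference of the members was -0.11, against -0.01 for all genes, and 30 of 39 lay below 0 (76.9%, against 55.5% of all genes). For 17 members both LY294002 arrays lay below all DMSO arrays (43.6%, against 13.4% of all genes), and for 0 both lay above (against 16.2%). At an unadjusted p under 0.05, 10 members were lower (25.6%, against 6.5% of all genes) and 0 higher (against 10.6%). The list was chosen with earlier results of these data known, so these shares describe it and are not a test. The members lowest with LY294002 were PAICS, CDK4, SMS, CAD and MTHFD1, at -0.69 to -0.42.

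By the members' median only LY294002 replicate 2 lay below the DMSO arrays, and replicate 1 lay within their range. Replicate 2 was below replicate 1 for 32 of 39 members (82.1%), against 44.0% of all genes. This was not particular to the members. The share was 66.7% over 123 other genes of the same pathways, described below. By list it ran from 42.9% (other polyamine genes) to 80.0% (other genes around MYC), with 77.4% for other nucleotide enzymes. The median deviation of the members from the DMSO mean was -0.05 on LY294002 replicate 1 and -0.20 on LY294002 replicate 2, while on the DMSO arrays it lay between -0.06 and 0.02. The median of all genes was -0.01 on LY294002 replicate 1 and -0.00083 on LY294002 replicate 2. Without replicate 1 the members' median was therefore -0.20, and without replicate 2 it was -0.05.

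**Figure D1:**
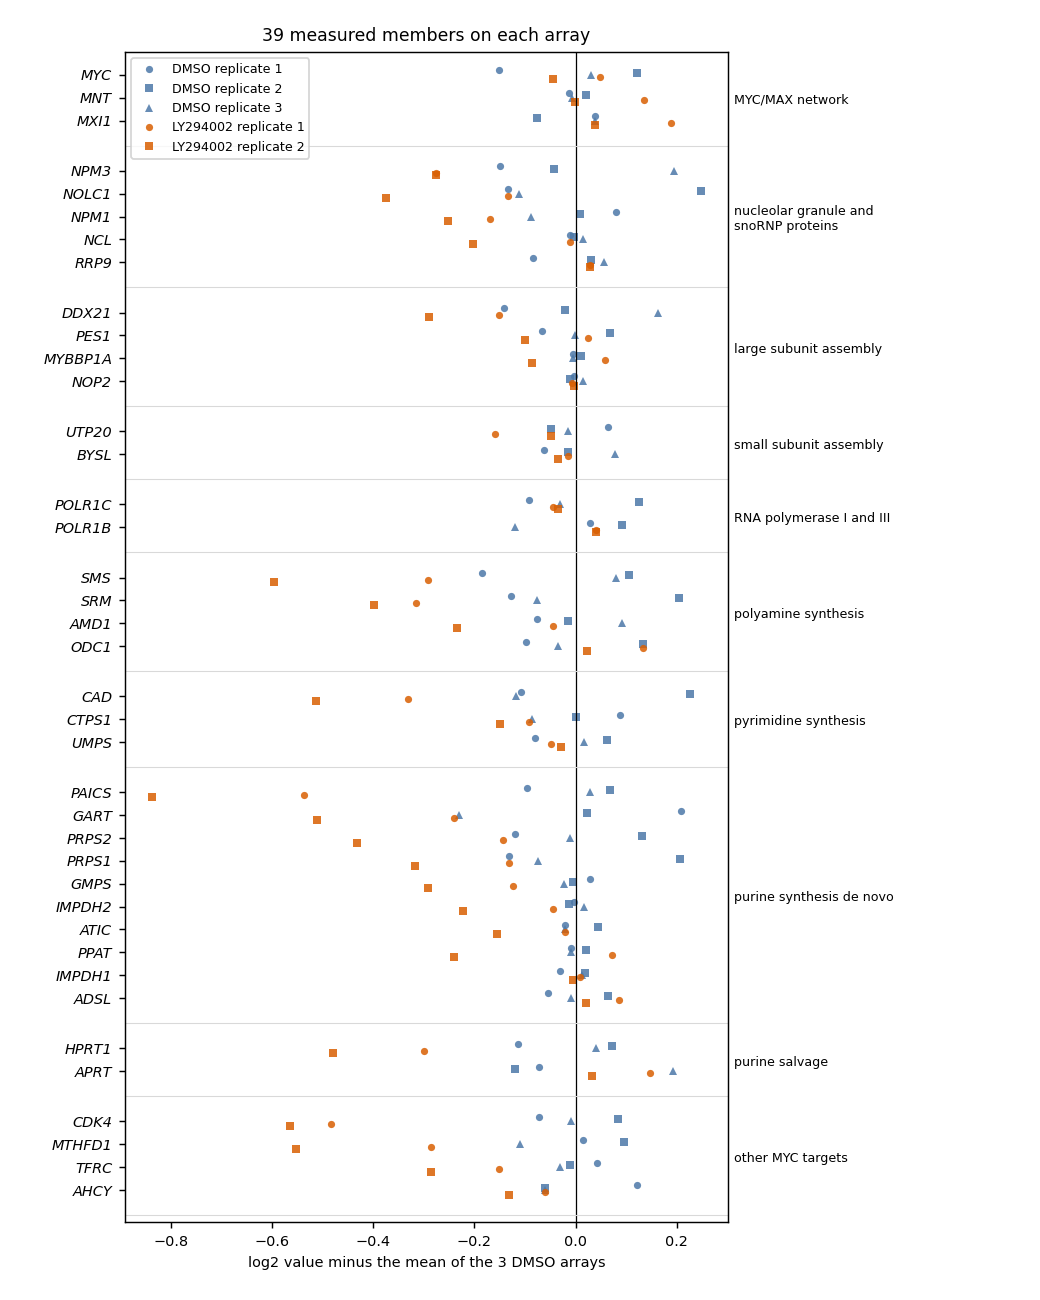
Each measured member (rows, grouped by role) on each of the 5 arrays, as the log2 value minus the mean of the 3 DMSO arrays (x axis); blue symbols are DMSO and orange symbols LY294002, with the replicate given by the symbol's shape. Both orange symbols lie left of all blue symbols for 17 of 39 members, farthest for PAICS, and LY294002 replicate 2 (orange square) is left of replicate 1 for 32.

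**Figure D2:**
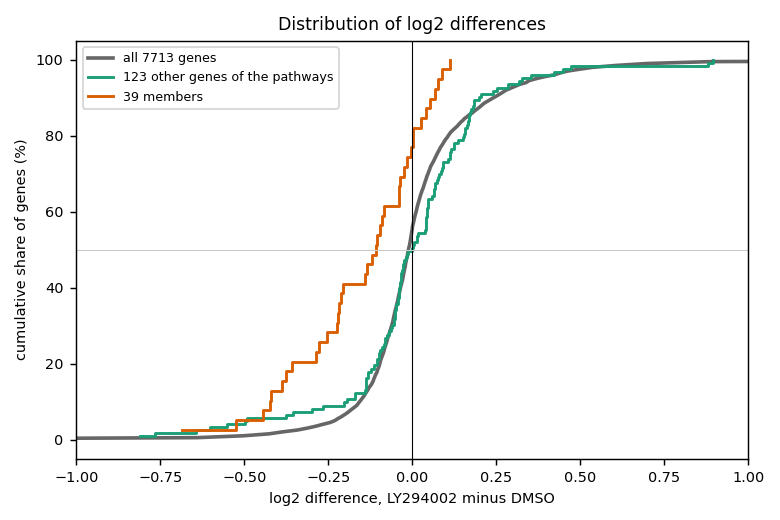
Cumulative share of genes (y axis, percent) by log2 difference between LY294002 and DMSO (x axis, shown from -1 to 1) for all 7713 genes (grey), 123 other genes of the same pathways (green) and the 39 members (orange). The orange curve crosses 50% at -0.11, the grey one at -0.01 and the green one at -0.00092; no member lies above 0.11.

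Within the MYC/MAX network, 3 of 6 genes were measured and all 3 groups of values overlapped. MYC was at 6.86, 7.13 and 7.04 with DMSO and at 7.06 and 6.96 with LY294002. Its LY294002 values lie inside the DMSO range, and the difference was 0.0018 ± 0.09 (SE; limma adjusted p = 0.999). The sign of a value so close to 0 is not fixed: it was -0.042 after quantile normalization of the arrays. MXI1, a repressor partner of MAX, was at 8.69, 8.57 and 8.69 with DMSO and at 8.84 and 8.69 with LY294002, a difference of 0.11 ± 0.07 and the highest of the 39 members. MNT, another such repressor and itself an E-box carrier, differed by 0.07 ± 0.05.

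Other genes around MYC, from a list of 18 partners, cofactors and degradation factors, were measured for 10. None rose or fell. Their median was 0.04, 7 of 10 lay above 0, and 3 were higher and 1 lower without overlap (30.0% and 10.0%, against 16.2% and 13.4% of all genes). The one with the smallest p was SKP2, a ubiquitin ligase subunit that targets p27 and also MYC, at 7.23, 7.56 and 7.44 with DMSO and 6.91 and 6.81 with LY294002. Both LY294002 arrays were below all DMSO arrays, and the difference was -0.55 ± 0.11 (limma adjusted p = 0.112).

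Of 25 nucleolar genes 11 were measured, with a median difference of -0.10. Of these, 10 lay below 0 (90.9%, against 55.5% of all genes). The groups did not overlap for 4, all lower (36.4%, against 13.4% of all genes). The 11 differences ran from -0.28 to 0.03. NPM1, nucleophosmin, a histone and ribosomal protein chaperone of the granular nucleolus, was at 11.18, 11.11 and 11.02 with DMSO and at 10.94 and 10.85 with LY294002, all lower with the inhibitor (-0.21 ± 0.06, limma adjusted p = 0.21). NPM1 has many processed pseudogenes, so its probe set may bind other transcripts. Its relative NPM3 was at 7.88, 7.98 and 8.22 with DMSO and 7.75 on both LY294002 arrays (-0.28 ± 0.11). Nucleolin, NCL, which binds the ribosomal RNA precursor, was at 10.49, 10.50 and 10.52 with DMSO, and only LY294002 replicate 2 was lower, at 10.30 against 10.49 on replicate 1. NOLC1, a chaperone of snoRNPs, ranged from 7.73 to 8.11 with DMSO and was at 7.73 and 7.49 with LY294002, with a difference of -0.25 ± 0.15 that is under 2 standard errors. RRP9, a protein of the U3 snoRNP, differed by 0.03 ± 0.05.

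Among the factors of large subunit assembly, the RNA helicase DDX21 was at 10.63, 10.75 and 10.94 with DMSO and at 10.62 and 10.48 with LY294002. Replicate 1 lay only just below the lowest DMSO array, and the difference was -0.22 ± 0.11 (limma adjusted p = 0.395). The rRNA methyltransferase NOP2 was at -0.005 ± 0.03, MYBBP1A, a nucleolar repressor of transcription, at -0.01 ± 0.05, and PES1, a scaffold of the PeBoW complex, at -0.04 ± 0.06. For the small subunit, UTP20, a component of the processome, was at 6.91, 6.80 and 6.83 with DMSO and 6.68 and 6.79 with LY294002 (-0.10 ± 0.05), and BYSL, bystin, was at -0.03 ± 0.05. Of 91 other ribosome assembly genes 28 were measured, with a median of -0.05; 0 passed, and 5 were lower and 3 higher without overlap (17.9% and 10.7%, against 13.4% and 16.2% of all genes). MRTO4, which places the stalk of the large subunit, had the smallest p among them. It stood at 8.44, 8.42 and 8.42 with DMSO and at 8.16 and 7.98 with LY294002 (-0.35 ± 0.06, limma adjusted p = 0.0827).

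Both RNA polymerase members lay close to 0. POLR1B, the second-largest subunit of RNA polymerase I, was at 0.04 ± 0.07, and POLR1C, a subunit that polymerases I and III share, at -0.04 ± 0.07, both with overlapping groups. Of the other genes of RNA polymerase I and its initiation factors 7 of 13 were measured, with a median of 0.08 and the smallest p for POLR1D, another subunit of both enzymes (0.12 ± 0.06). For RNA polymerase III and its factors 18 of 27 were measured, with a median of 0.04, and 4 were lower and 4 higher without overlap (22.2% each way, against 13.4% and 16.2% of all genes). SNAPC2, of the complex that starts snRNA transcription, was dim, at 5.06, 5.31 and 5.35 with DMSO and 5.60 and 5.59 with LY294002. Its p was the smallest of the list (0.35 ± 0.10, limma adjusted p = 0.188). GTF3A, the factor TFIIIA of 5S rRNA transcription, had almost the same p in the other direction (-0.38 ± 0.10, limma adjusted p = 0.189); it was chosen after its values were seen. Of the subunits common to all 3 nuclear polymerases 4 of 5 were measured, with the smallest p for POLR2F (0.09 ± 0.03). No gene of these 3 lists rose or fell.

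Purine synthesis held the lowest member. PAICS, which carries out consecutive steps in the middle of the pathway, was at 9.95, 10.12 and 10.08 with DMSO and at 9.51 and 9.21 with LY294002. Both LY294002 arrays were below all DMSO arrays by more than the DMSO range, and the level was 62.1% of DMSO (-0.69 ± 0.11, limma adjusted p = 0.077). Only 0.389% of all genes were as low or lower. GART, which catalyses the steps before, was at 7.87, 7.69 and 7.43 with DMSO and 7.42 and 7.15 with LY294002. Its DMSO arrays were spread widely, and replicate 1 of LY294002 lay at the edge of their range (-0.38 ± 0.16).

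The first enzymes of the route showed smaller differences. PRPS1 and PRPS2 make the ribose donor PRPP; PRPS2 was at 8.95, 9.20 and 9.05 with DMSO and 8.92 and 8.63 with LY294002 (-0.29 ± 0.12), and PRPS1 at -0.22 ± 0.13 with overlapping groups. PPAT, the committed step, was at 7.89, 7.92 and 7.89 with DMSO and at 7.97 and 7.66 with LY294002, one array above and the other below the DMSO range (-0.08 ± 0.10). The later enzymes ADSL and ATIC were at 0.05 ± 0.05 and -0.09 ± 0.05.

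From inosine monophosphate to GMP, GMPS was at 7.89, 7.85 and 7.83 with DMSO and 7.73 and 7.57 with LY294002 (-0.21 ± 0.06, limma adjusted p = 0.197). IMP dehydrogenase is the rate-limiting enzyme of this branch. Its isoform IMPDH2 was at 8.82, 8.81 and 8.84 with DMSO and 8.78 and 8.60 with LY294002 (-0.13 ± 0.06), and IMPDH1 was at 0.0015 ± 0.03. In salvage, HPRT1, which recycles hypoxanthine and guanine, was at 9.28, 9.47 and 9.44 with DMSO and 9.10 and 8.92 with LY294002. Its groups did not overlap (-0.39 ± 0.09, limma adjusted p = 0.131). APRT, which recycles adenine, was at 0.09 ± 0.11 with overlapping groups. Over the 12 purine genes the median was -0.17, and 9 lay below 0 (against 55.5% of all genes). For 6 both LY294002 arrays were below all DMSO arrays (against 13.4% of all genes).

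PPAT and PAICS are neighbours that are transcribed away from each other, and the 136 bases between the PPAT start and the nearest of 3 PAICS starts in the RefSeq windows are shown because the pair differed so much on the arrays. The stretch is chr4:56435616-56435751 of GRCh38.p14, on the plus strand, with PPAT to its left and PAICS to its right, and capitals mark the GC box GGGCGG, a motif bound by SP1.
PPAT to PAICS: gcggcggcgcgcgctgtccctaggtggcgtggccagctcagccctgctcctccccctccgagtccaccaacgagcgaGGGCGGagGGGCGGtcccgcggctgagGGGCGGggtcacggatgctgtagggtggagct
It holds 3 GC boxes and 0 E-boxes, and the E-box shown for PPAT lies beyond its right end, past that PAICS start. PAICS is also among the 15 members with an E-box in at least 1 of their windows. The GC box, as GGGCGG or its reverse complement CCGCCC, is in 45.0% of all promoter windows and in 77.9% of the windows of all listed members. The difference between the PAICS and the PPAT log2 values, relative to its DMSO mean, was -0.09, 0.05 and 0.04 on the DMSO arrays and -0.61 and -0.60 on the LY294002 arrays. The pair was chosen after its values were seen, and no test of that difference is given.

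In pyrimidine synthesis 3 of 4 genes were measured and all lay below 0, against 55.5% of all genes. CAD, which carries the first steps and is controlled by mTOR signalling, was at 8.75, 9.09 and 8.74 with DMSO and at 8.53 and 8.35 with LY294002. Both LY294002 arrays were lower than every DMSO array (-0.42 ± 0.13, limma adjusted p = 0.228). CTPS1, which makes CTP and on which lymphocyte proliferation depends, was at 7.78, 7.70 and 7.61 with DMSO and 7.60 and 7.55 with LY294002 (-0.12 ± 0.06). UMPS, which completes UMP, was at -0.04 ± 0.05.

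All 4 polyamine synthesis genes were measured, and the groups did not overlap for 2, the synthases, both lower (against 13.4% of all genes). ODC1, the rate-limiting ornithine decarboxylase and a well-known MYC target with the pair of E-boxes shown above, was at 9.69, 9.92 and 9.75 with DMSO and 9.92 and 9.81 with LY294002, so that the groups overlapped (0.08 ± 0.08). Spermidine synthase, SRM, was at 9.74, 10.07 and 9.79 with DMSO and 9.55 and 9.47 with LY294002 (-0.36 ± 0.11, limma adjusted p = 0.232). Spermine synthase, SMS, was at 9.01, 9.30 and 9.27 with DMSO and 8.90 and 8.59 with LY294002 (-0.44 ± 0.14, limma adjusted p = 0.222). Both synthases were lower on both LY294002 arrays, while AMD1, which supplies the aminopropyl donor, was dim and overlapped (-0.14 ± 0.08).

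Of 12 other polyamine genes 7 were measured, with a median of 0.33, and for 4 the LY294002 values exceeded every DMSO value (57.1%, against 16.2% of all genes); 1 was lower without overlap and 0 passed. SAT1, the acetyltransferase that starts polyamine breakdown and export, was dim with DMSO, at 5.63, 5.96 and 5.97. It was at 6.78 and 6.70 with LY294002, the largest difference of these genes (0.88 ± 0.12, limma adjusted p = 0.0649). It passed in 6 of 15 alternatives, with an adjusted p from 0.00543 to 0.363. OAZ1, the antizyme that inhibits ODC1 protein, was at 0.45 ± 0.09, AZIN1, which binds antizyme, at 0.47 ± 0.10, and DHPS, which uses spermidine to modify EIF5A, at 0.33 ± 0.06. The last 3 were chosen after their values were seen, and their adjusted p-values ran from 0.0968 to 0.123.

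**Figure D3:**
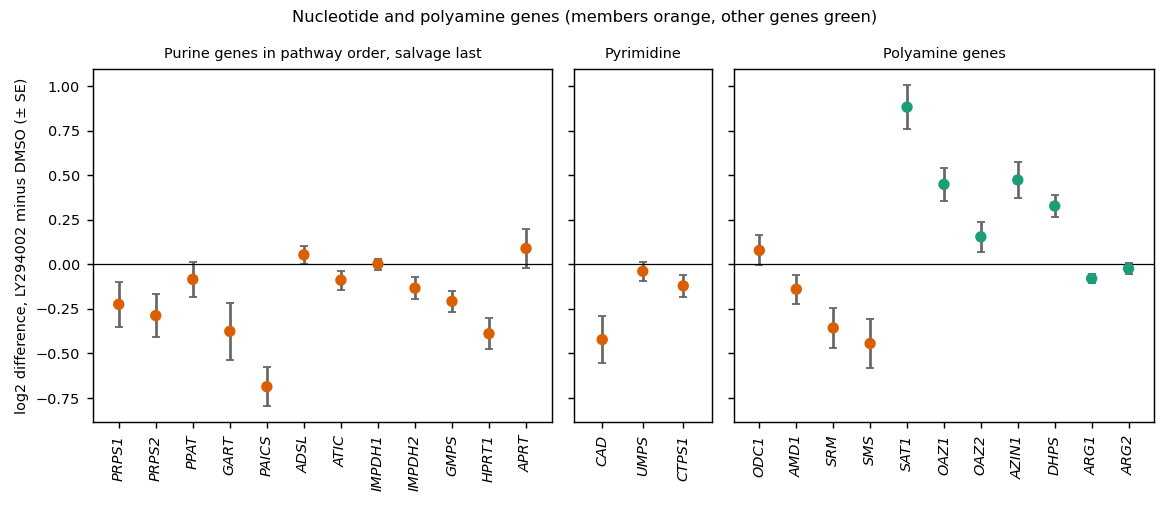
Log2 difference between LY294002 and DMSO (y axis, points, with the standard error of the limma fit as bars, from 3 DMSO and 2 LY294002 arrays) for purine, pyrimidine and polyamine genes; members are orange and other genes green. PAICS is lowest at -0.69 and SAT1 highest at 0.88, and none of the genes drawn passed the test.

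Of the other known MYC targets, CDK4 came closest to the threshold. This cyclin D-dependent kinase, with 3 E-boxes in its window, was at 10.73, 10.89 and 10.79 with DMSO and at 10.32 and 10.24 with LY294002. The gap between the groups exceeded the range within either, and the level was 69.5% of DMSO (-0.52 ± 0.06, limma adjusted p = 0.0504). TFRC, the transferrin receptor, was at 11.15, 11.09 and 11.07 with DMSO and 10.95 and 10.82 with LY294002 (-0.22 ± 0.05, limma adjusted p = 0.158). MTHFD1, a folate enzyme that supplies one-carbon units to purine synthesis, was at 9.18, 9.27 and 9.06 with DMSO and 8.88 and 8.62 with LY294002 (-0.42 ± 0.11, limma adjusted p = 0.165). AHCY, which clears S-adenosylhomocysteine, overlapped between the groups (-0.10 ± 0.07).

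One gene of the wider lists rose. MAT2B, the regulatory subunit of methionine adenosyltransferase, was at 8.80, 8.91 and 8.87 with DMSO and at 9.88 and 9.63 with LY294002 (0.89 ± 0.09, limma adjusted p = 0.0388). It was the 1 of 18 measured one-carbon and methionine cycle genes to pass, and the median of that list was -0.01. The call was lost without any 1 array: its adjusted p was 0.122, 0.172 and 0.199 without DMSO replicates 1, 2 and 3, and 0.124 and 0.0685 without LY294002 replicates 1 and 2. It was also lost with array weights (0.066), without variance moderation (0.267) and with the replicate number as a block (0.358), so that MAT2B passed in 7 of 15 alternatives.

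Enzymes that turn these nucleotides into DNA precursors and interconvert them were measured for 31 of 45. None passed, 10 were lower and 7 higher without overlap (32.3% and 22.6%, against 13.4% and 16.2% of all genes), and the median was -0.05. AK4, a mitochondrial adenylate kinase, had the smallest p, at 9.05, 9.17 and 8.92 with DMSO and 8.44 and 8.36 with LY294002 (-0.64 ± 0.08, limma adjusted p = 0.059). Among genes chosen after their values were seen, the nucleoside diphosphate kinase NME1 was at -0.77 ± 0.12, RRM1, the large subunit of ribonucleotide reductase, at -0.60 ± 0.14, and TYMS, thymidylate synthase, at -0.50 ± 0.12. These 3 were lower on both LY294002 arrays. NT5C2, a cytosolic nucleotidase chosen in the same way, was higher on both (0.32 ± 0.05), with a limma adjusted p of 0.082 against 0.0762 for NME1, 0.145 for RRM1 and 0.152 for TYMS. NT5C2 was dim, at 4.99, 4.96 and 4.94 with DMSO and at 5.35 and 5.21 with LY294002. Over all 123 measured genes of the wider lists the median was -0.00092, with 24 lower and 28 higher without overlap (19.5% and 22.8%, against 13.4% and 16.2% of all genes).

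Members lower with LY294002 were found both with and without an E-box. The 15 measured members with the motif had a median difference of -0.08, from -0.69 to 0.08, and for 6 of them both LY294002 arrays were below all DMSO arrays. The site shown for PPAT also lies in a PAICS window and counts for both genes. The 20 without the motif had a median of -0.17, from -0.44 to 0.11, and 10 were lower without overlap. Of all genes, 13.4% were lower without overlap. The values with and without the motif are descriptions of the 2 sets of members, with no test.

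How many members passed depended on the scaling of the arrays. After quantile normalization 5 members fell and 0 rose, against 1.65% and 2.23% of all genes: CDK4 (limma adjusted p = 0.0084), PAICS (0.012), HPRT1 (0.0297), MTHFD1 (0.035) and GMPS (0.049). Their differences were then -0.56, -0.75, -0.46, -0.48 and -0.27. CDK4 passed in 7 of 15 alternatives, PAICS in 4, HPRT1 in 3, MTHFD1 in 2 and GMPS in 1, and none of them passed when any 1 array was left out or with array weights. Over the alternatives CDK4 stayed between -0.56 and -0.48 and PAICS between -0.84 and -0.54.

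**Figure D4:**
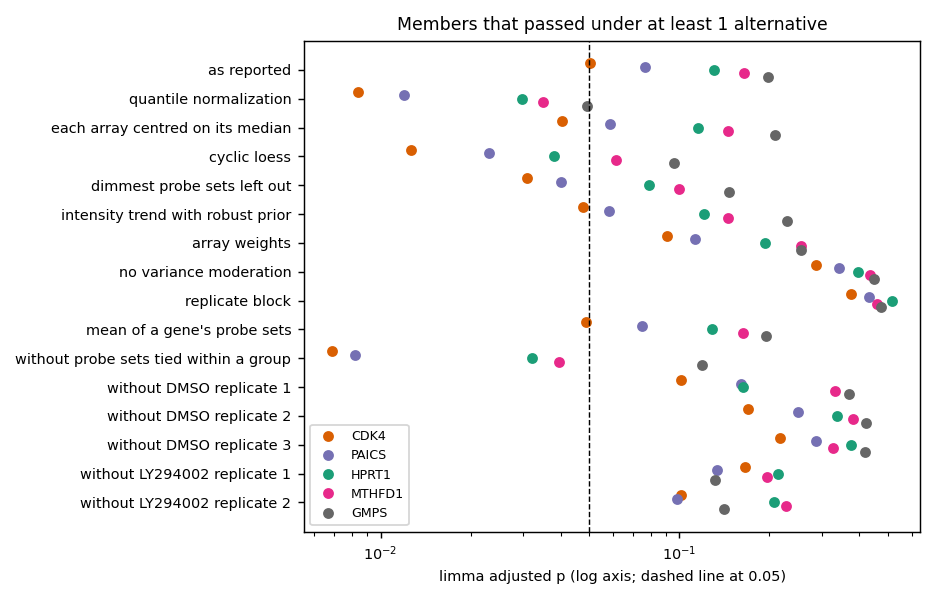
Limma adjusted p (x axis, log scale, threshold 0.05 dashed) of the 5 members that passed under at least 1 alternative (colours), for the analysis as reported and each of 15 alternatives (y axis). CDK4 lies at 0.0504 as reported and at 0.0084 after quantile normalization, and every point is right of the line when 1 array is left out.

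The arrays themselves were close to each other. Medians lay between 6.26 and 6.29, and the upper quartiles between 7.59 and 7.62, apart from 7.69 for the first LY294002 array. The part of that array's higher quartile in the members' values was not tested beyond the scaling alternatives. Pearson's r across probe sets was at least 0.996 within a group and at most 0.992 between groups. Of the 39 probe sets 16 end in _s_at and 1 (POLR1B) in _x_at, names that mark probes which may bind several transcripts. Ties, meaning 2 arrays of a group with exactly the same value, occurred for 7 members and for 38.0% of all probe sets. Values shared by a DMSO and an LY294002 array were not counted. Members outside the 7 had such values too, among them NCL, NOLC1, PRPS1, BYSL and NOP2. Of 10 markers of Hodgkin cells, among them CD30 (TNFRSF8), 9 were above the array median on every array and 1, IRF4, rose (0.66 ± 0.07, limma adjusted p = 0.0473). All 4 measured myeloid markers were below the median. Of 6 T cell markers 5 were above the median, and of 6 markers of stroma, endothelium and epithelium 1 was. Of 5 measured B-lineage genes 2 were above and 2 below, and 1, BLNK, fell (-1.48 ± 0.15, limma adjusted p = 0.0419). The summed log2 level of those 5 ran from 36.1 to 36.8 with DMSO and from 33.9 to 34.0 with LY294002, a difference carried by BLNK and MS4A1 (-0.999), with CD79A, CD79B and CD22 at 0.06, 0.01 and -0.07. The sum of the T cell markers ran from 42.7 to 42.9 with DMSO and from 42.0 to 42.5 with LY294002, and that of the stroma, endothelium and epithelium markers from 34.6 to 35.0 and from 33.9 to 34.0, both also lower without overlap. The sum of the Hodgkin markers (87.0 to 89.1 and 87.7 to 88.0) and that of the myeloid markers (21.5 to 21.6 and 21.4 to 21.6) overlapped. The part of the lower sums in the members' values was not tested.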

How the data were processed

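Biotin-labelled cRNA of 3 DMSO and 2 LY294002 samples was hybridised to Affymetrix arrays, per the labels' protocols. The authors deposited probe set values that lie on a log2 scale. The submitters' processing notes name the tool affy, an R package; neither its version nor the background correction or summary method is given in the sources used here. The values were used as deposited. Leaving out 47 controls, 8746 probe sets were fitted in limma 3.58.1 (lmFit and eBayes, R 4.3.3, statmod 1.5.0) on treatment alone, which left 3 residual degrees of freedom; p-values were adjusted by Benjamini-Hochberg over all 8746. Symbols came from the platform annotation: 7840 probe sets had 1, 388 several and 518 none. A gene with several probe sets (122 genes) was represented by the brightest, which gave 7713 genes. The code of the fit was run on simulated data with independent normal noise. That noise held no ties or array-wide shifts, so the run does not show how the fit behaves with them. Array number limits the precision, and dim probe sets can show little difference. The members and lists were chosen with earlier results of these data known. Named genes are all measured members, genes of the wider lists that passed, and, for a list with none, the gene with the smallest p; any other gene is marked in the text as chosen with its values known. No list test was run. Promoter windows came from RefSeq (GRCh38.p14); no build is named for the array. Figures used matplotlib 3.10.9 in Python 3.11.15. Alternatives were other scalings, filters, variance settings, the replicate number as a block and each array left out.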

Additional observations from a re-analysis of the deposited data

How the results depend on the processing

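Genes past the limma threshold numbered 70 as reported. The count was 299 after quantile normalization, 147 after median centring, 264 after cyclic loess, 203 without the dimmest 40% of probe sets, 17 with array weights, 1 without variance moderation and 510 without probe sets tied within a group (this last setting was added once the data had been seen). It was 0 to 4 when 1 array was left out; fits with 1 LY294002 array assume that it varies like the DMSO arrays. The members past it, 0 as reported, numbered 5, 1, 3 and 2 in the first 4 of these settings, 4 without tied probe sets, 1 with a robust prior that follows intensity and 1 with probe sets averaged per gene. All of these were lower. Of all genes, 1.65%, 0.622%, 1.24% and 1.34% were past it and lower in those first 4 settings. The share was 3.37% without tied probe sets, where 32 members and 4783 genes remained. It was 0.337% with the robust prior and 0.363% with averaged probe sets. The median difference of the members, -0.11, was -0.20 without LY294002 replicate 1, and -0.20 to -0.050 over the fits without 1 array. With the replicate block 0 genes and 0 members passed; the deviations of same-numbered arrays from their group means correlated at 0.0021 for number 1 and -0.21 for number 2. With 2 pairs these values do not show whether a batch was shared, and the labels do not say, so the numbers were not used as a pairing in the reported fit. For 27 of 39 members the sign held in all alternatives. The reported differences of the others ran from -0.08 (PPAT) to 0.07 (MNT). The LY294002 arrays of PPAT lay on either side of its DMSO values. MYC was at -0.042 after quantile normalization, -0.0026 after median centring, -0.0054 after cyclic loess and -0.025 with array weights. IMPDH1 was at -0.050, -0.0028, -0.013 and -0.0033 in the same settings. After quantile normalization RRP9 was at -0.017, POLR1B at -0.0077 and ADSL at -0.0091. With the replicate block NOP2 was at 0.0024, BYSL at 0.014 and POLR1B at -0.020. Without 1 array MYC ranged from -0.074 to 0.063, RRP9 from -0.015 to 0.055, IMPDH1 from -0.014 to 0.010, POLR1B from -0.020 to 0.085, POLR1C from -0.087 to 0.022, NOP2 from -0.011 to 0.0024, BYSL from -0.057 to 0.014, MNT from -0.0017 to 0.13, PES1 from -0.10 to 0.024, MYBBP1A from -0.086 to 0.057 and PPAT from -0.24 to 0.071. The causes of these differences between settings were not tested.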
